A study of Mus musculus with 6 samples.

Results

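The p53 target genes described here are Mdm2, Cdkn1a, Ccng1, Trp53inp1, Sesn2, Eda2r, Phlda3, Aen and Zmat3, taken with every probe set that the platform's annotation pairs with these symbols. They are 9 of 18193 genes tested and 19 of 45037 probe sets other than controls. The list they come from holds 10 symbols, and the remaining one, Trp53 itself, was not analysed here, so the text describes the targets of p53 and not the level of the factor.

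Expression was read from Affymetrix arrays, 1 for each mouse, in sorted marrow cells that lack lineage markers and carry cKit and Sca1 (LSK cells), a fraction that contains blood stem cells and their first multipotent descendants. The 3 WT mice carried Mx1-cre, and the 3 N1IC mice carried Mx1-cre together with a lox-stop-lox N1-IC allele, from which Cre releases expression of the active intracellular part of Notch1. All 6 mice were 5 weeks old and had received 3 injections of polyIC (20 mcg per g of body weight) from the age of 21 days, the last of them 2 weeks before the sort. The labels' treatment text names Ncstn flox/flox animals, in disagreement with the genotype labels, which were followed here. Mx1-cre answers to interferon in many cell types, so recombination was not limited to the sorted cells, and the controls carry Cre and received polyIC too. The comparison asks how LSK cells with active Notch1 differ from LSK cells without it. The labels speak of littermates without saying which of these mice shared a litter, and p-values measure the spread between these 6 samples.

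The protein p53 is a transcription factor that is held at a low level by the ubiquitin ligase Mdm2 and accumulates when kinases report DNA damage or other stress. It then raises genes that stop the cell cycle, repair DNA, limit oxidative damage or start apoptosis, and also Mdm2, which closes a negative feedback loop. In bone marrow p53 is known for restraining the division of stem cells and for removing progenitors with damaged DNA.

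Of the 9 genes, 2 were lower in N1IC and none was higher by limma (adjusted p under 0.05, Benjamini-Hochberg over all genes). Of all genes tested, 11.8% passed, 8.31% as lower and 3.47% as higher. Zmat3, a zinc finger RNA-binding protein, was 2.07-fold lower, and Phlda3, a pleckstrin-homology protein that restrains the kinase Akt, was 1.81-fold lower. Mdm2, Cdkn1a, Ccng1, Sesn2, Eda2r and Aen did not pass, and Trp53inp1 passed on 1 of its 2 probe sets. At an unadjusted p under 0.05, 1 gene was higher (Trp53inp1) and 2 were lower. The median log2 difference was 0.05 over the 9 genes and -0.01 over all genes, with differences taken as N1IC minus WT. All p-values below are from limma and adjusted over all genes, or over all probe sets where a probe set other than the brightest is named.

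Some facts of the whole series bear on these values. Of 4 Notch target genes taken as a check of the labels (Hes1, Dtx1, Nrarp and Notch3), 4 were higher in N1IC. WT replicate 1 lay away from the other 5 arrays on the second principal component. Its neutrophil and monocyte markers summed to 27509, against 62022 and 60990 on WT replicates 2 and 3. Its T cell markers summed to 611, against 2422 and 1865 on those arrays. The sexes were uneven, with 2 males and 1 female in WT and 3 females in N1IC, so a fit with sex as a covariate rests on WT replicate 2 as the only WT female. Of 5 LSK markers, 4 were lower in N1IC, with a summed intensity of 17843 to 20521 in WT and 8615 to 9493 in N1IC. Kit, the stem cell factor receptor used in the sort, named after its value was seen, stood at a log2 difference of -0.25 and did not pass. Of 7 T cell markers, 4 were higher, with a summed intensity of 611 to 2422 in WT and 11965 to 15307 in N1IC. At an unadjusted p under 0.05, 4 T cell markers were higher and 1 was lower. Of 4 B cell markers, 3 were lower (5784 to 8040 in WT, 2191 to 2341 in N1IC). Of 8 neutrophil and monocyte markers, 1 was lower (27509 to 62022 in WT, 21931 to 32292 in N1IC), with 5 lower and none higher at an unadjusted p under 0.05. Of 5 macrophage markers, 2 were higher (1057 to 2108 in WT, 1041 to 2281 in N1IC), with 3 higher and 1 lower at an unadjusted p under 0.05. None of 4 erythroid and none of 4 endothelial and stromal markers passed by limma, with 0 and 2 at an unadjusted p under 0.05. Detection calls were not used, so no marker is called absent. The part of these shifts in the values below was not tested, and fewer cells of a type cannot be told apart from less RNA per cell.

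The upstream sequence of Cdkn1a is shown because it holds the pattern that p53 reads. RefSeq (GRCm38.p6) promoter windows, which run from 250 bases before to 50 bases after a transcript start, exist for 7 of the 9 genes, in 9 windows. They were searched for the canonical p53 half-site, a pattern of 10 bases that reads alike on both strands, and for 2 such half-sites at most 13 bases apart. A half-site was present in 8.36% of all 32851 windows and a pair in 0.0731%. Cdkn1a has 2 RefSeq windows. The upstream one holds a pair, starting 73 and 51 bases before the transcript start, and its stretch at chr17:29090866-29090977 (plus strand) is printed first. Only exact matches were counted. The 10 bases right after the second half-site (tgacatgttc) depart from the pattern only at their first base and so are not in capitals. Which of these letters p53 binds was not tested. Mdm2 (chr10:117710895-117710984, minus strand) and Ccng1 (chr11:40755422-40755511, minus strand) hold 1 half-site each. They are shown 5′ to 3′ on the strand of the gene, in lower case with the half-sites in capitals.
Cdkn1a: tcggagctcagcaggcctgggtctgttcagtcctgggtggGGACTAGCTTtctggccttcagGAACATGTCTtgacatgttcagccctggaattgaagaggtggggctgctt
Mdm2: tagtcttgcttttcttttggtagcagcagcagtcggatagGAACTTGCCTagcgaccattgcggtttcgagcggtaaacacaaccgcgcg
Ccng1: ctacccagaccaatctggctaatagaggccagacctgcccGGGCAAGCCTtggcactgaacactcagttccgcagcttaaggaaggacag

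Aen also holds 1 half-site (GGGCTTGTCC), which both of its windows share. No half-site lay in the windows of Sesn2, Eda2r or Phlda3. Phlda3 is shown because it is the gene with a window that was lower in N1IC. Its 250 bases before the transcript start (chr1:135765835-135766084, plus strand) have no capitals, since no half-site was found in them. That says only that these letters are not in this window.
Phlda3: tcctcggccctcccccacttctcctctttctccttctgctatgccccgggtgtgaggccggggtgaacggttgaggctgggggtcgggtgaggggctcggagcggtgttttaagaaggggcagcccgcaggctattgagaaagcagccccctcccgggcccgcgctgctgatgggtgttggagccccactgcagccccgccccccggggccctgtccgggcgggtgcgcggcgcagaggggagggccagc

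The core TGGGAA read by RBPJ, the DNA-binding partner of Notch, was searched on both strands and is present in 25.6% of all windows. It lay in windows of 3 of the 7 genes, Sesn2, Aen and Cdkn1a. All these matches are descriptions of letters and not of binding.

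Mdm2, the ubiquitin ligase that marks p53 for destruction, lies on chromosome 10 (117688875 to 117710758, GRCm38.p6). On its brightest probe set the log2 intensity was 12.03, 11.89 and 11.71 in WT replicates 1 to 3 and 12.06, 11.87 and 12.06 in N1IC replicates 1 to 3. The groups overlapped, and the log2 difference was 0.12 ± 0.11 (SE, n = 3) with an adjusted p of 0.569 and a 95% confidence interval of -0.16 to 0.39. The second brightest Mdm2 probe set gave another picture, at 8.24, 8.09 and 7.66 in WT and 8.78, 8.44 and 8.83 in N1IC. Here every N1IC array lay above every WT array, with a log2 difference of 0.69 ± 0.19 (SE, n = 3), but an adjusted p over all probe sets of 0.0874. The dimmest Mdm2 probe set stood at 4.13, 3.85 and 3.88 in WT and at 4.73, 3.66 and 4.79 in N1IC, with N1IC replicate 2 below all WT arrays. All its values lay below the median intensity of the arrays. With all 6 arrays its adjusted p was 0.473 over all probe sets. It passed only without N1IC replicate 2, with a log2 difference of 0.81 and an adjusted p of 0.0369. All 3 Mdm2 probe sets thus had a positive difference and none passed by limma with all 6 arrays.

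Cdkn1a encodes p21, the inhibitor of cyclin-dependent kinases through which p53 stops the cell cycle, and lies on chromosome 17 (29090979 to 29100722). Its brighter probe set stood at 12.09, 11.36 and 11.57 in WT and at 11.90, 12.16 and 12.04 in N1IC. WT replicate 1 was the highest WT array and lay among the N1IC arrays, while WT replicates 2 and 3 lay below all of them. The log2 difference was 0.36 ± 0.20 (SE, n = 3), with an adjusted p of 0.316 and a 95% confidence interval of -0.12 to 0.84. Without WT replicate 1 it was 0.57 with an adjusted p of 0.0511, and without WT replicate 2 it was 0.20. The dimmer probe set again had WT replicate 1 among the N1IC arrays and the other WT arrays below them, at 10.44, 9.59 and 9.46 in WT and at 10.19, 10.69 and 10.56 in N1IC. Its log2 difference was 0.65 ± 0.29 (SE, n = 3) with an adjusted p of 0.247, and 0.95 with an adjusted p of 0.0434 without WT replicate 1. In 9 of 10 alternative settings this probe set did not pass, with log2 differences down to 0.46 and adjusted p up to 0.483. The interval of Cdkn1a with all 6 arrays thus leaves room for no difference and for one of 0.84.

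Ccng1, the cyclin G1 that recruits a phosphatase to Mdm2, was the steadiest of the 9 genes (chromosome 11, 40748552 to 40755309). Its brightest probe set stood at 12.03, 11.89 and 11.92 in WT and at 12.05, 12.03 and 11.91 in N1IC. The groups overlapped, the log2 difference was 0.05 ± 0.08 (SE, n = 3), and the 95% confidence interval ran from -0.15 to 0.25. Its other probe sets differed by 0.12 and 0.02, and none of the 3 passed (adjusted p between 0.549 and 0.951 over all probe sets).

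Trp53inp1, a stress protein that promotes p53 activity and autophagy, had a positive difference on both of its probe sets, of which the dimmer passed (chromosome 4, 11156441 to 11174379). The brighter one stood at 11.64, 11.58 and 11.61 in WT and at 12.24, 12.16 and 11.82 in N1IC. All N1IC arrays lay above all WT arrays. The groups did not overlap for 32.8% of all genes tested, 13.1% with N1IC above and 19.7% with N1IC below, and N1IC replicate 3 was the nearest to WT. The log2 difference was 0.46 ± 0.12 (SE, n = 3), and the adjusted p of 0.0678 missed the threshold. Without N1IC replicate 3 it was 0.59 with an adjusted p of 0.0247. In every other fit without 1 array the brighter probe set did not pass, with adjusted p between 0.12 and 0.174. Its adjusted p was 0.123 with the replicate block and 0.285 with sex as a covariate. The dimmer probe set rose 3.06-fold, from 7.40, 7.57 and 7.29 in WT to 9.41, 9.20 and 8.49 in N1IC. Its adjusted p was 0.0175 over all probe sets, of which 3.16% were higher. Leaving out WT replicate 3 ended this call, as did leaving out N1IC replicate 1 or 2, with adjusted p between 0.0523 and 0.0618 and log2 differences between 1.43 and 1.55. With sex as a covariate the log2 difference was 1.46 and the adjusted p 0.165. Both probe sets carry the same order of N1IC arrays, and which transcripts each one reads is not known here. With the mean of both probe sets the gene passed, with a log2 difference of 1.04 and an adjusted p of 0.016.

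**Figure D1:**
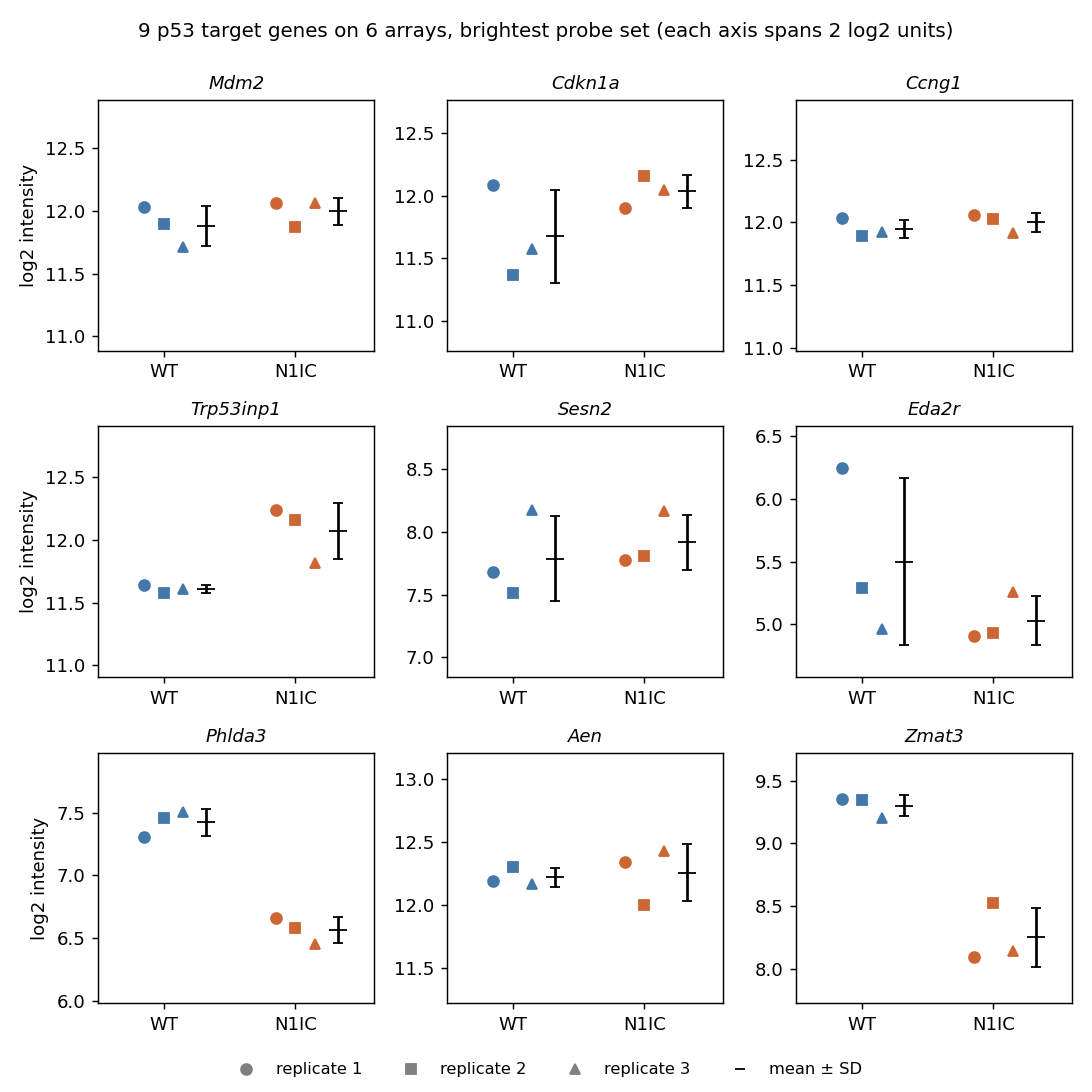
Log2 intensity of the 9 p53 target genes on the brightest probe set of each, with 1 point per array (WT in blue, N1IC in orange, shape for the replicate number) and the mean ± SD of 3 arrays beside them. Each axis spans 2 log2 units. Phlda3 and Zmat3 separate downward and Trp53inp1 upward, while WT replicate 1 stands among or above the N1IC arrays for Cdkn1a and Eda2r.

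Sesn2 encodes sestrin 2, which lowers oxidative damage and restrains the growth kinase mTORC1 (chromosome 4, 132492804 to 132510456). Its brighter probe set stood at 7.68, 7.51 and 8.17 in WT and at 7.77, 7.81 and 8.17 in N1IC. The range of the WT arrays held all 3 N1IC arrays, and the adjusted p was 0.748 at a log2 difference of 0.13 ± 0.20 (SE, n = 3). The sign turned to -0.01 without WT replicate 2. The dimmer probe set stood at -0.10, so the probe sets of Sesn2 differ in sign and neither passed.

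Aen, a nuclease of apoptosis that p53 raises, has 4 probe sets (chromosome 7, 78895927 to 78911209). The brightest stood at 12.19, 12.31 and 12.17 in WT and at 12.35, 12.00 and 12.43 in N1IC. N1IC replicate 2 was the lowest of the 6 arrays and the other N1IC arrays were the highest. The log2 difference was 0.04 ± 0.13 (SE, n = 3), with a 95% confidence interval of -0.28 to 0.36. Of the other Aen probe sets, the brightest stood at a log2 difference of 0.24 and both others at -0.30. None of the 4 passed by limma over all probe sets, and none had an unadjusted p under 0.05.

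Eda2r, a receptor of the TNF receptor family for the A2 form of ectodysplasin, lies on the X chromosome (97333837 to 97377234). Its only probe set stood at 6.25, 5.29 and 4.96 in WT and at 4.91, 4.93 and 5.26 in N1IC. All its values lay below the median intensity of the arrays. WT replicate 1 was the highest of the 6 arrays, and the other WT arrays overlapped with N1IC. The log2 difference was -0.47 ± 0.33 (SE, n = 3) with an adjusted p of 0.44, and it was -0.10 without WT replicate 1. Eda2r had the widest spread of the 9 genes, with a within-group SD of 0.49 against a median of 0.17 over the 9 genes and 0.15 over all genes. Cdkn1a and Eda2r had their highest WT value on WT replicate 1, as did 6 of the 9 genes in all.

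Phlda3 was lower on every N1IC array (chromosome 1, 135766085 to 135769134). Its only probe set stood at 7.30, 7.46 and 7.51 in WT and at 6.66, 6.58 and 6.45 in N1IC. The lowest WT array was above the highest N1IC array, as for 19.7% of all genes tested. The mean fell from 7.42 ± 0.11 to 6.56 ± 0.11 (SD, n = 3), a log2 difference of -0.86 ± 0.10 (SE) and limma gave an adjusted p of 0.00468. With sex as a covariate the log2 difference was -0.89, but the adjusted p was 0.0584. In the 6 fits without 1 array the log2 difference lay between -0.92 and -0.80, with adjusted p between 0.00832 and 0.0224.

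Zmat3 showed the largest difference among the brightest probe sets of the 9 genes (chromosome 3, 32334792 to 32365665). Its only probe set stood at 9.35, 9.34 and 9.21 in WT and at 8.09, 8.52 and 8.14 in N1IC. The groups did not overlap, and N1IC replicate 2 was the nearest to WT. The mean fell from 9.30 ± 0.08 to 8.25 ± 0.24 (SD, n = 3), a log2 difference of -1.05 ± 0.13 (SE) with an adjusted p of 0.00713. With sex as a covariate the log2 difference was -1.09 and the adjusted p 0.0748. Without 1 array it lay between -1.18 and -0.97, with adjusted p between 0.00715 and 0.029. The genes with the most similar profile over the 6 arrays, by root mean square distance of centred log2 values, were Agpat4 (0.08), Hip1 (0.08) and Exoc6b (0.09), each lower in N1IC. The log2 differences of Hip1 and Exoc6b were -1.15 and -1.10. The 3 genes were picked for a profile like that of Zmat3, so their fall follows from the choice.

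**Figure D2:**
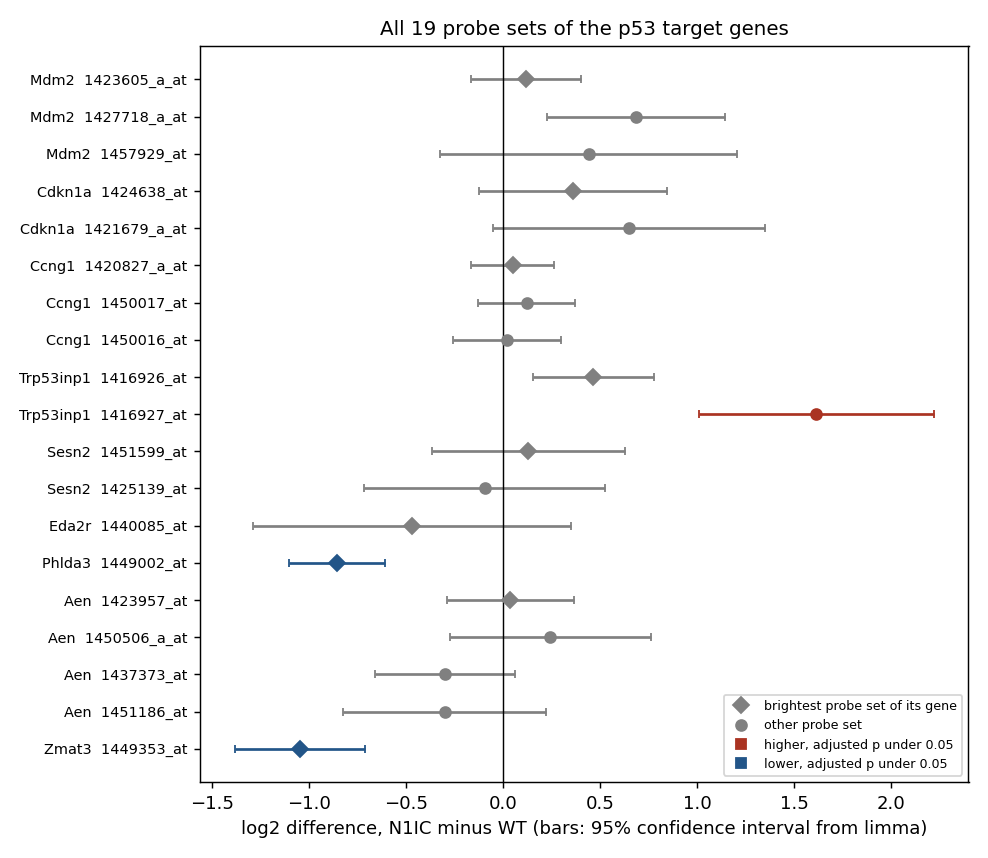
Log2 difference (N1IC minus WT, 3 arrays each) of all 19 probe sets with 95% confidence intervals from limma, diamonds for the brightest probe set of a gene and circles for the others. The probe sets of Phlda3 and Zmat3 are called lower and the dimmer one of Trp53inp1 is called higher, at -0.86, -1.05 and 1.61.

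Of all 19 probe sets, 1 was called higher and 2 were called lower, where 3.16% and 4.76% of all probe sets were, 7.92% in all. In 5 of the 19 the groups did not overlap (3 above and 2 below), as in 29.5% of all probe sets. Counts this small are not read as setting the 9 genes apart from the rest.

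The other genes of the p53 pathway were taken from lists written from textbook knowledge. Upstream of p53, 1 of 18 measured activators (damage kinases, adaptors, acetyltransferases, Cdkn2a and Rpl11) was lower and none was higher by limma (2 lower and none higher at an unadjusted p under 0.05). Their median log2 difference was -0.02. The kinases Atm, Atr, Chek1 and Chek2, named after their values were seen, stood at 0.00, -0.18, 0.09 and 0.18. Mdc1, an adaptor that binds phosphorylated H2AX at breaks, was the one that fell, at 12.20, 12.16 and 12.11 in WT and 11.86, 11.78 and 11.88 in N1IC. Its log2 difference was -0.32 with an adjusted p of 0.0443. That call was lost when any 1 array was left out (adjusted p between 0.0905 and 0.124). It was also lost with arrays centred on the median (0.0533), with the replicate block (0.133) and with sex as a covariate (0.254). The only probe set of Mdc1 did not pass when all probe sets were tested singly.

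Among 8 inhibitors of p53 or regulators of its stability, 1 was higher and none was lower (1 lower at an unadjusted p under 0.05), with a median of 0.05. Sirt1, the deacetylase that removes activating acetyl groups from p53, rose 1.32-fold, from 10.57, 10.42 and 10.62 in WT to 11.04, 10.87 and 10.89 in N1IC. The adjusted p was 0.0458, and between 0.0816 and 0.129 when any 1 array was left out and 0.0532 with arrays centred on the median. With sex as a covariate the log2 difference of Sirt1 was 0.52 and the adjusted p 0.124. Its only probe set did not pass when all probe sets were tested singly. Mdm4, the partner of Mdm2, named after its value was seen, stood at 0.35 ± 0.21 (SE, n = 3) with an adjusted p of 0.35. None of 5 genes of the p53 family and the ASPP proteins, which steer p53 toward or away from death genes, passed by limma (1 lower at an unadjusted p under 0.05). The brightest of these, Ppp1r13b and Trp53bp2, stood at -0.51 and 0.09.

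**Figure D3:**
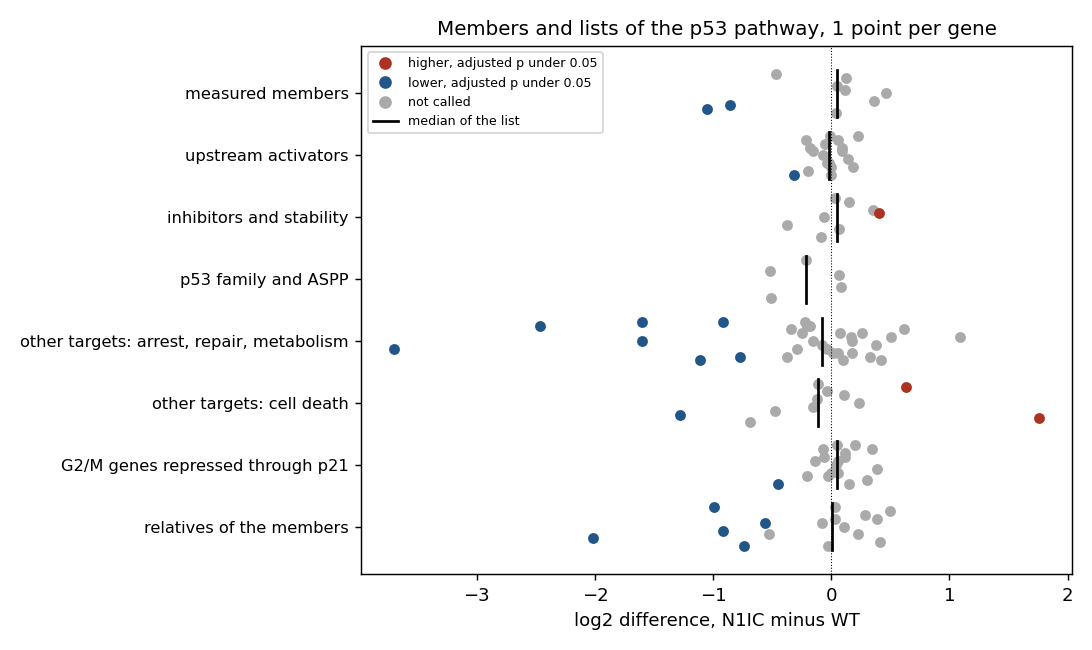
Log2 difference (N1IC minus WT) of each measured gene in the 9 p53 targets and in 7 lists of the pathway, 1 point per gene, with the median of each list as a black line. Medians lie between -0.21 and 0.05, and the largest falls belong to targets of growth arrest, repair and metabolism.

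Of 31 other p53 targets of growth arrest, repair and metabolism, 7 were lower and none was higher by limma (9 lower and 3 higher at an unadjusted p under 0.05), with a median of -0.08, where 8.31% of all genes were lower and 3.47% higher. The count lower was 1 with sex as a covariate. It was 3 with the brighter 40% of genes, where Ndn, Dram1, Ephx1 and Ak1 were not among the genes tested. The count higher was 2 with the mean of all probe sets. Ndn, the growth suppressor necdin, which p53 raises in quiescent stem cells, fell by 3.70 on the log2 scale. It spanned 9.88 to 10.28 in WT and stood at 6.17, 7.23 and 5.65 in N1IC, and all 8 of its probe sets had a negative difference, of which 5 passed. With the mean of all probe sets its log2 difference was -2.33 in place of -3.70. Dram1, a lysosomal protein of autophagy, fell 5.52-fold, from 7.62, 8.88 and 8.37 in WT to 5.86, 5.84 and 5.78 in N1IC. Dram1 is the only one of the 7 that kept its call with sex as a covariate, with a log2 difference of -3.05 and an adjusted p of 0.0195.

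Plk2, a polo-like kinase of the centrosome cycle, fell 3.03-fold on its brighter probe set, at 10.93, 10.58 and 10.86 in WT and 9.44, 8.66 and 9.46 in N1IC. The detoxifying epoxide hydrolase Ephx1 also fell 3.03-fold, with log2 levels of 6.93, 7.08 and 7.49 in WT and 5.84, 5.59 and 5.27 in N1IC. Ak1, an adenylate kinase, fell 2.16-fold, from 9.29, 8.81 and 8.97 in WT to 7.82, 8.04 and 7.87 in N1IC. Plk2 and Ak1 each have a dimmer probe set with a positive difference, and the means of their probe sets gave -0.79 and -0.50 in place of -1.60 and -1.11. The adjusted p of these 3 genes was 0.0117 for Plk2, 0.00689 for Ephx1 and 0.00725 for Ak1. The remaining called targets of this list are Xpc and Sesn1. Xpc falls outside the rule for named genes and was named after its value was seen, while Sesn1 is named by the rule among the relatives below. Xpc, which recognises DNA lesions in nucleotide excision repair, fell 1.71-fold (adjusted p = 0.0117), and Sesn1, a sestrin like Sesn2, fell 1.88-fold (adjusted p = 0.0178). Ddb2, which works beside Xpc in lesion recognition, was also named after its value was seen. It stood in the other direction at a log2 difference of 0.50 and an adjusted p of 0.0556, with no overlap between the groups. Of its 2 probe sets, 1 was called higher when all were tested singly, and Ddb2 passed with the mean of both (0.63, adjusted p = 0.0186), with the brighter 60% or 40% of genes and with an intensity trend. Its adjusted p was between 0.0579 and 0.155 without 1 array and 0.285 with sex as a covariate.

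Of 11 measured p53 targets of cell death, 2 were higher and 1 was lower by limma (2 higher and 2 lower at an unadjusted p under 0.05), with a median of -0.11, against 3.47% higher and 8.31% lower over all genes. With sex as a covariate none of the 11 passed. Pmaip1, which encodes Noxa, a BH3-only protein that blocks the survival factor Mcl1, rose 3.39-fold. It stood at 9.79, 10.51 and 10.26 in WT and at 11.91, 11.73 and 12.21 in N1IC, all N1IC arrays being above all WT arrays, with an adjusted p of 0.00629. With sex as a covariate the log2 difference of Pmaip1 was 1.44 and the adjusted p 0.0709. Perp, a membrane protein of desmosomes and apoptosis, rose 1.55-fold, at 9.43, 9.53 and 9.26 in WT and 9.88, 10.23 and 10.02 in N1IC (adjusted p = 0.0266). That call was lost without WT replicate 1 or 3 or N1IC replicate 2 or 3 (adjusted p between 0.0591 and 0.0813). Fas, the death receptor, fell 2.43-fold, from 6.41, 7.53 and 7.15 in WT to 5.99, 5.77 and 5.49 in N1IC (adjusted p = 0.0464). Fas lost its call without any array other than WT replicate 1 (adjusted p between 0.0937 and 0.136). Its only probe set did not pass when all probe sets were tested singly. Bbc3, which encodes Puma, the BH3-only protein beside Noxa, was named after its value was seen and stood at -0.48 ± 0.31 (SE, n = 3) with an adjusted p of 0.395.

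**Figure D4:**
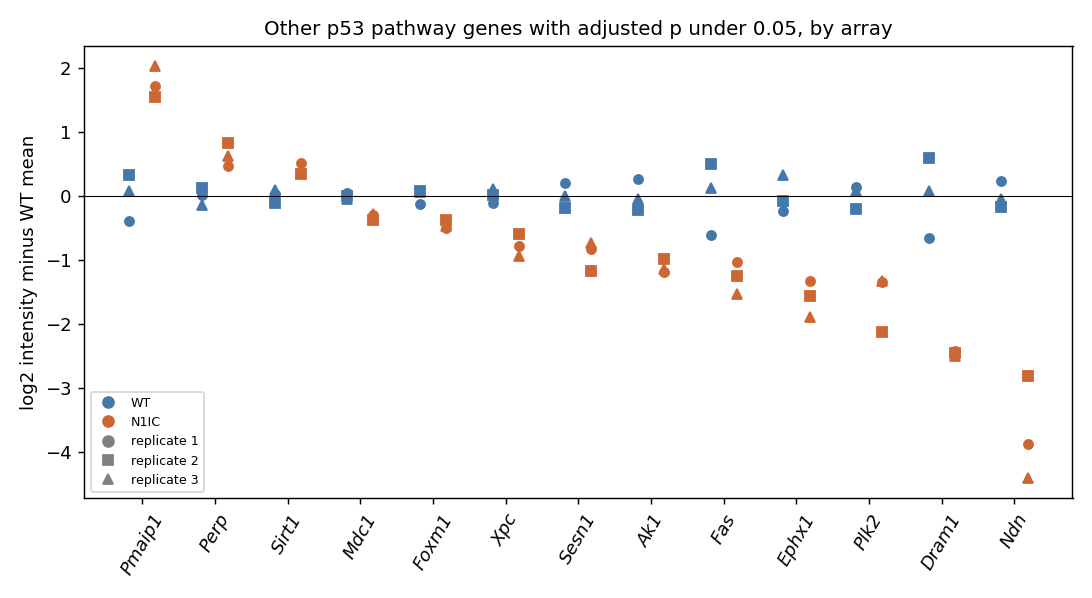
Log2 intensity minus the WT mean on each of the 6 arrays (WT in blue, N1IC in orange, shape for the replicate number) for the 13 other pathway genes called by limma, of which 3 were higher and 10 lower. Pmaip1 lies above the WT arrays by more than the spread of either group, and Ndn and Dram1 lie farthest below.

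Genes of the G2 and M phases, which p53 lowers through p21 and the DREAM complex, mostly did not pass. Of 18 measured, 1 was lower and none was higher by limma (2 lower and 3 higher at an unadjusted p under 0.05), with a median of 0.05. The count higher was 2 with the brighter 40% of genes and also 2 with an intensity trend. The count lower was 1 with the intensity trend. It was 0 with the brighter 40% of genes, where Foxm1 was not among the genes tested. The count lower was also 0 with the replicate block and with sex as a covariate. In 6 of the 18 all N1IC arrays lay above all WT arrays and in 3 below, against 13.1% and 19.7% of all genes. Foxm1, a transcription factor of mitotic genes, fell 1.36-fold, from 9.12, 9.32 and 9.32 in WT to 8.75, 8.88 and 8.79 in N1IC (adjusted p = 0.0292). Foxm1 lost its call in 8 of 15 alternative settings. These include the replicate block (adjusted p = 0.0705), sex as a covariate and each fit without 1 array other than that without WT replicate 1. Mki67 and Top2a, markers of dividing cells named after their values were seen, stood at log2 differences of -0.01 and -0.03. The 3 genes higher at an unadjusted p under 0.05, Ube2c, Cenpa and Cdc25c, stood at 0.35, 0.39 and 0.30. Ccna2, lower at that threshold beside Foxm1, stood at -0.21. These genes were also named after their values were seen.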

How the data were processed

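The authors deposited a linear intensity for every probe set. RMA made these values, per the submitters' processing notes, and its version is not given in the sources used here. RMA makes arrays comparable and compresses the differences of dim probe sets. RNA was amplified with the Ovation system, per the labels' protocols. The linear scale was settled from the range of the values, and log2 was taken before any test.

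For each of 18193 genes the brightest probe set over the 6 arrays was kept, from 34945 probe sets with 1 gene symbol (932 had several and 9160 none). Symbols were updated by gene ID through RefSeq (GRCm38.p6) for 34741 probe sets. The groups were compared in R 4.3.3 with limma 3.58.1, using lmFit and eBayes without covariates. Tests were two-sided, p-values were adjusted by Benjamini-Hochberg across the genes, and genes under 0.05 were called. A second fit took all 45037 probe sets other than controls. Median intensity lay between 89.0 and 92.4 on the 6 arrays, and 3 arrays per group limit the precision. The fit was tested on simulated data, and plots used matplotlib 3.10.9.

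The members and lists were chosen with earlier results of these data known. Named are all members; from each list up to 5 genes called, by smallest p, or else the 2 brightest; and for a called member with a log2 difference of at least 1, the 3 genes nearest in profile. Any other gene is marked in the text as chosen with its value known. Replicate numbers recur in both groups, but the labels do not tie the numbers to litters. Deviations from the group means of same-numbered arrays correlated at -0.09, -0.07 and 0.07. For both reasons the numbers were not taken as pairs. The titles of WT replicates 1 and 2 carry a letter b after the number, which no other title has. What that letter marks is not known here. Trp53 and some members of the lists were not analysed here.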

Additional observations from a re-analysis of the deposited data

How the results depend on the processing

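The 9 genes gave 148 values under alternative settings. Of these, 136 kept direction and side of the threshold, 2 lost a call (Phlda3 and Zmat3 with sex as a covariate), 5 gained one (all Trp53inp1), and 5 values of genes not called (4 of Aen, 1 of Sesn2) changed sign. The count of members lower was 2, and 0 with sex as a covariate and with the brighter 40% of genes, where Phlda3 and Zmat3 were not among the genes tested. It was 2 in each fit without 1 array. The count of members higher was 0, and 1 (Trp53inp1) at an adjusted p of 0.1, with the brighter 60% or 40% of genes, with the mean of all probe sets and with an intensity trend; without 1 array it was 0 to 1. Over all genes, 632 were higher and 1512 lower. An adjusted p of 0.01 gave 209 and 536, the replicate block 357 and 936, and sex as a covariate 116 and 333. With an adjusted p of 0.1, 1038 were higher, with all probe sets tested singly 1132 were higher, and with the brighter 40% of genes 857 were lower. Without 1 array, 332 to 509 were higher and 835 to 1420 lower, the lowest without WT replicate 3. The replicate block kept the calls of Phlda3 and Zmat3 (adjusted p = 0.0364 and 0.0267). Of the called pathway genes it ended those of Mdc1, Sirt1, Perp, Fas and Foxm1 (adjusted p = 0.133, 0.102, 0.0509, 0.11 and 0.0705). With sex as a covariate, 1 other target of arrest, repair and metabolism was lower and no target of cell death passed. The alternatives for list counts, pathway genes and dimmer probe sets were chosen after seeing the data. The cause of these changes was not tested.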

Other observations

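The close relatives of the 9 genes, which share a protein family or a ligand with them, were listed beside the pathway. Of 16 measured, 5 were lower in N1IC and none was higher by limma (6 lower and 2 higher at an unadjusted p under 0.05), where 8.31% of all genes were lower. The count lower was 1 (Edar) with sex as a covariate, where Sesn1, Sesn3, Cdkn1c and Eda lost their calls. It was 2 with the replicate block and with the mean of all probe sets, and 2 to 5 without 1 array, the lowest without N1IC replicate 1. With the brighter 60% or 40% of genes it was also 2, but there Edar, Cdkn1c and Eda were not among the genes tested. Edar, the receptor for the A1 form of ectodysplasin and a relative of Eda2r, fell 4.05-fold, from 6.66, 6.66 and 6.29 in WT to 4.47, 4.92 and 4.16 in N1IC (adjusted p = 0.00414). A second Edar probe set had a positive difference, and the mean of both gave a log2 difference of -0.99 in place of -2.02. Eda, the ligand of both receptors, fell 1.48-fold (adjusted p = 0.0437), but 2 of its 5 probe sets had a positive difference, none passed when each was tested on its own, and the call was lost without any 1 array (adjusted p between 0.0665 and 0.119) and with the replicate block (0.0551).

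Of the sestrins, Sesn1 fell 1.88-fold, from 11.21, 10.83 and 11.01 in WT to 10.18, 9.84 and 10.28 in N1IC, and all 4 of its probe sets had a negative difference, of which 1 passed. The mean of all 4 missed the threshold, with a log2 difference of -0.64 and an adjusted p of 0.0501. The call of Sesn1 was lost without WT replicate 3 or N1IC replicate 1 (adjusted p = 0.0617 and 0.0551). Sesn3 fell 1.67-fold on its brighter probe set (adjusted p = 0.0132), while the dimmer one had a positive difference and the mean of both stood at -0.24 (adjusted p = 0.204). The replicate block ended the call of Sesn3 too (adjusted p = 0.0655). Sesn2 did not pass, at a log2 difference of 0.13, and the difference between the sestrins was not tested. Among the inhibitors of cyclin-dependent kinases, Cdkn1c, the p57 inhibitor of quiescent stem cells, fell 1.98-fold, from 6.72, 6.53 and 6.18 in WT to 5.33, 5.66 and 5.47 in N1IC (adjusted p = 0.0167). Leaving out WT replicate 2 ended its call, as did leaving out N1IC replicate 1 or 3 (adjusted p between 0.055 and 0.0613) and with the replicate block (0.0531). Cdkn1a, described above, and Cdkn1b, the p27 inhibitor, named after its value was seen, did not pass, at 0.36 and 0.22.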
